A study of Mus musculus with 2 samples.

Results

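Foxa1, Foxa2 and Foxa3, the 3 mouse genes of the FOXA forkhead family, were examined in maps of open chromatin from newborn lung. They were taken by name from the 21938 protein-coding genes of the GENCODE M21 annotation of mm10. The maps were made by DNase-seq, in which DNase I cuts DNA where it is not wrapped in nucleosomes, so that regions rich in cuts mark promoters, enhancers and insulators. The material was whole lung tissue of strain B6NCrl at a postnatal age of 0 days, with sex not collected, in 2 biological replicates. They formed 1 group and no genotype, treatment or other age was compared, so the comparisons below are between the genes, between the replicates, and between the Foxa genes and all other genes. The labels list a separate biosample for each replicate under the same donor entry, and do not say that the replicates came from separate animals, so the difference between them may be technical. In tissue of many cell types, a site opened weakly in many cells and a site opened strongly in few cells cannot be told apart.

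FOXA proteins are called pioneer factors because their winged-helix domain can bind its target on nucleosomal DNA and open it for other factors. In the mouse lung, Foxa1 and Foxa2 are expressed in the epithelium and act together in branching and in the differentiation of airway and alveolar cells. Foxa2 is also needed for the node, notochord, floor plate and definitive endoderm, and Foxa3 is known mainly from liver metabolism and, in airways, from goblet cells.

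Each replicate came with a list of peaks, all 150 bp wide and each carrying a score set by the authors, and a list of hotspots, which are wider regions of enriched cutting. Replicate 1 had 276480 peaks with a median score of 50 and a highest score of 150, and replicate 2 had 188498 peaks with a median of 43 and a highest of 148. Hotspots covered 3.14% of the 21 chromosomes in replicate 1 and 2.02% in replicate 2. No sequencing depth is given in the sources used here, so peak numbers and scores could not be scaled by it. Peaks were merged into 290376 sites, and the 161051 sites where a replicate 1 peak overlapped a replicate 2 peak are termed shared below. As a check of the tissue label, 25 of 30 lung cell type markers had a shared peak within 500 bp of a transcription start site (TSS), against 4 of 15 markers of other organs and 68.5% of all protein-coding genes. Of the lung markers, those of alveolar type 2 cells had 5 of 5, of alveolar type 1 cells 4 of 5 and of airway 3 of 5. Those of endothelium and of mesenchyme had 5 of 5 each and of immune cells 3 of 5. These last cell types also occur in other organs, so their markers say little about the label.

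All 3 Foxa genes had a shared promoter peak, that is, a shared site within 500 bp of any of their TSSs, as did 68.5% of all protein-coding genes. The limit applies to the merged site, so the peak of either replicate can lie past it. A few listed genes thus count as shared although a replicate has no peak of its own within 500 bp. The count of 3 is too small to be read against that share. What differed between the genes was the setting of these peaks. Foxa1 lay inside the run with the most shared sites in these maps, at gaps of at most 1000 bp, Foxa2 had scattered sites in a stretch without other protein-coding genes, and Foxa3 had a weak promoter peak among the strong promoters of its neighbours.

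The peak sequences below are shown because they are the strongest shared sites of Foxa1 and Foxa2 that lie outside annotated exons, and the only promoter site of Foxa3. They are the replicate 1 peaks, read from the GRCm38.p6 RefSeq genome on the plus strand from 5′ to 3′. Capitals mark matches on either strand to the words searched, among them the 3 forkhead words TGTTTAC (the core bound by many forkhead factors), TGTTTGC (a variant with a G) and TATTTAC (a variant with an A).
Foxa1 upstream peak, chr12:57548476-57548625: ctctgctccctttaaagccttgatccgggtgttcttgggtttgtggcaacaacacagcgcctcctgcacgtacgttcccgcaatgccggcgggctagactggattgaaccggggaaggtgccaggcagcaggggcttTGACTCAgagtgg
Foxa1 intron peak, chr12:57545016-57545165: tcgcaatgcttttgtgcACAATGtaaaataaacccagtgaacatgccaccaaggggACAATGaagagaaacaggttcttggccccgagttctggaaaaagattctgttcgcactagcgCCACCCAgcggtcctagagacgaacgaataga
Foxa2 promoter peak nearer the 5′ end, chr2:148046296-148046445: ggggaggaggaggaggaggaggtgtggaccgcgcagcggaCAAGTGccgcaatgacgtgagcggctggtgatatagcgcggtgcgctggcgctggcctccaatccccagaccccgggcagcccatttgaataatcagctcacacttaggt
Foxa2 promoter peak nearer the third TSS, chr2:148046036-148046185: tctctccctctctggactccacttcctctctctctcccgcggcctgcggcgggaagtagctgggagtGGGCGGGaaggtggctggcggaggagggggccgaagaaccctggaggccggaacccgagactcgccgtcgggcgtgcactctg
Foxa2 distal peak, chr2:148018236-148018385: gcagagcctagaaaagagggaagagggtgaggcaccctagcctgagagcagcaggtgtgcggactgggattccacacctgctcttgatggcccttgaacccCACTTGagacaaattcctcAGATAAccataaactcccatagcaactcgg
Foxa3 promoter peak, chr7:19023556-19023705: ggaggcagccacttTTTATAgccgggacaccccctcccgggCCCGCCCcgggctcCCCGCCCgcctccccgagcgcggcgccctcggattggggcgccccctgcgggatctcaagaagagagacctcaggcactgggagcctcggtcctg
None of these 6 peaks held a forkhead word. The capitals mark an AP-1 word (TGANTCA) in the Foxa1 upstream peak, and SOX words (ACAATG) and a GLI word (TGGGTGG) in the Foxa1 intron peak. In the Foxa2 peaks they mark NKX2 words (CAAGTG), an SP/KLF word (GGGCGGG) and a GATA word (AGATAA). In the Foxa3 peak they mark 2 SP/KLF words and, at base 15, a TATA word (TATAAA, on the minus strand). Such a word beginning 20 to 40 bp upstream of the start was held by 1.99% of 32851 RefSeq promoters. The Foxa3 promoter was among them, with the word beginning 36 bp upstream, and the Foxa1 promoter and the 3 Foxa2 promoters in RefSeq were not. The TATA word was searched after the sequences had been seen, and a match shows only that the letters are there.

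Foxa1 (ENSMUSG00000035451.7, chr12:57540628-57546916, minus strand, 6289 bp) has 2 annotated TSSs, that of a noncoding transcript at the 5′ end of the gene and that of the coding transcript 795 bp downstream. Replicate 1 had 4 peaks within 500 bp of these starts, with scores of 76, 91, 110 and 49, and replicate 2 also had 4, with scores of 55, 66, 56 and 85. The strongest peak of both replicates, scoring 110 in replicate 1 and 85 in replicate 2, lay at the noncoding start. The peak at the coding start scored 91 in replicate 1 and 66 in replicate 2. Thus the maps held open chromatin at each start, and at the noncoding one the score was higher in both replicates. The replicate 2 peak of score 56, between the starts, overlapped no replicate 1 peak but lay in a replicate 1 hotspot. The replicate 1 peak of score 49, at 500 bp from the start, overlapped a replicate 2 peak of score 26 whose own position was just past that limit.

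Foxa2 (ENSMUSG00000037025.11, chr2:148042877-148046969, minus strand, 4093 bp) has 4 annotated TSSs, of which the furthest downstream belongs to a noncoding transcript. Its 2 shared promoter sites lay inside the gene model, in the intron upstream of the start of Foxa2-202, with centres 619 and 869 bp from the 5′ end. The site nearer the 5′ end scored 114 in replicate 1 and 81 in replicate 2. The other scored 107 in replicate 1 and 80 in replicate 2. The annotated 5′ end itself, where 2 coding transcripts begin, carried a peak of score 84 in replicate 1, and neither a peak nor a hotspot in replicate 2. In replicate 1 as a whole, 1738 peaks had a score of 84, and 96.0% of them overlapped a replicate 2 peak.

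Foxa3 (ENSMUSG00000040891.6, chr7:19013284-19023538, minus strand, 10255 bp) has 1 annotated TSS. Its single promoter peak scored 72 in replicate 1 and 48 in replicate 2, and began 18 bp upstream of the start in replicate 1 and 58 bp upstream in replicate 2. The next site upstream, scoring 139 in replicate 1 and 126 in replicate 2, lay 12 bp from the start of Sympk, the gene of a scaffold protein of messenger RNA 3′ end processing, which is transcribed the opposite way. That site was 678 bp from the Foxa3 TSS and so beyond the 500 bp limit. The Foxa3 peak was thus the weaker of the pair in both replicates.

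Among the 15870 genes with a promoter peak in replicate 1, the strongest promoter peak had a median score of 120 (quartiles 89 and 133). Among the 15190 such genes in replicate 2 the median was 101 (quartiles 72 and 117). All 3 Foxa genes lay below these medians in both replicates. The percentile of Foxa1 was 39.5 in replicate 1 and 34.0 in replicate 2, that of Foxa2 was 43.4 and 30.8 in the same order, and that of Foxa3 was 17.8 and 12.6. Foxa3 was the lowest of the 3 in both replicates. The order of Foxa1 and Foxa2 turned round between the replicates, and it depended on the TSSs used. With protein-coding transcripts only, Foxa1 was at 26.4 in replicate 1 and 21.9 in replicate 2, below Foxa2 in both. With the 5′ gene end only, Foxa1 was at 41.5 in replicate 1 and 35.4 in replicate 2, above Foxa2, which was at 25.2 in replicate 1 and had no peak in replicate 2. With promoters of 1000 bp, Foxa3 takes in the Sympk site and moves to percentiles of 88.4 in replicate 1 and 90.4 in replicate 2. No test was made of these differences between genes.

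The number of CpG dinucleotides within 500 bp of the 5′ end, a feature that often goes with open promoters, was 36 for Foxa1, 41 for Foxa2 and 52 for Foxa3, against a median of 41 for all protein-coding genes. Foxa3, with the weakest promoter peak, thus had the most CpGs of the 3 by this count. The count does not cover all promoter peaks. The shared promoter sites of Foxa2 began 524 bp from its 5′ end, and the coding start of Foxa1 lay 795 bp from its 5′ end.

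**Figure D1:**
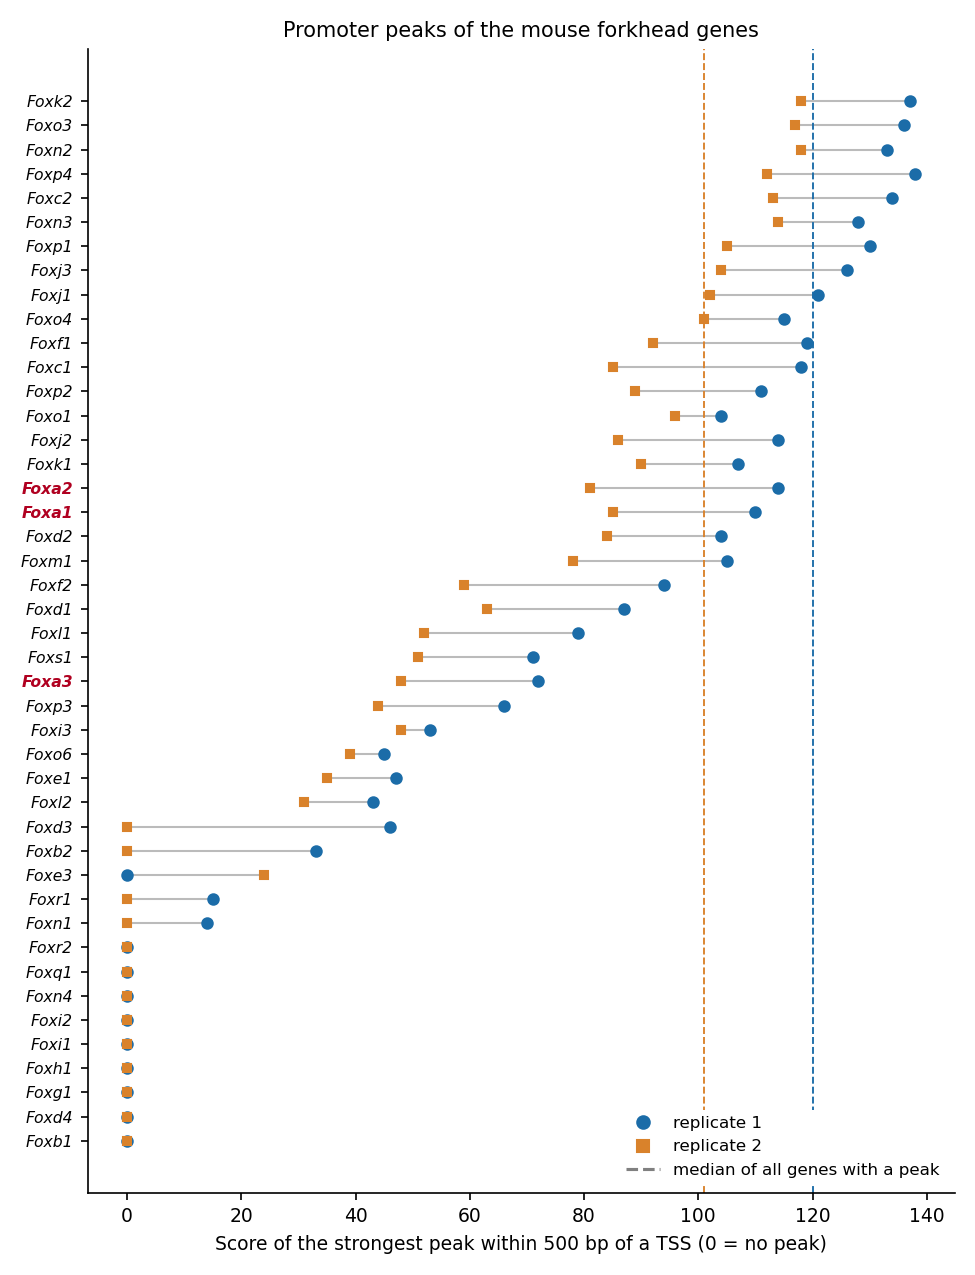
Score of the strongest peak within 500 bp of any TSS of the 44 mouse forkhead genes, with replicate 1 as circles, replicate 2 as squares and 0 for no peak. Dashed lines give the medians of all genes with a promoter peak (120 in replicate 1 and 101 in replicate 2), and the Foxa genes, in bold, lie below them.

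In the plot of forkhead promoters, Foxa1 ranked 16 of 44 genes in both replicates, Foxa2 ranked 13 in replicate 1 and 19 in replicate 2, and Foxa3 ranked 24 and 25 in the same order. Of the 41 other forkhead genes, 28 (68.3%) had a shared promoter peak, a share close to the 68.5% of all genes. The strongest were Foxk2 (137 in replicate 1 and 118 in replicate 2), whose product represses autophagy and other starvation genes, Foxo3 (136 and 117), an effector of insulin signalling, and Foxp4 (138 and 112), a repressor expressed in lung epithelium. Foxb1 and Foxd4 had no promoter peak in either replicate. Likeness to the Foxa genes was measured as the distance over 3 percentiles, those of the promoter score in each replicate and that of the number of shared sites. By this measure Foxk1 was nearest to Foxa1 at 5.79 points, Foxd2 to Foxa2 at 7.21 points, and Foxm1 to Foxa3 at 20 points. The distance for Foxa3 was the largest of the 3, and its weak promoter peak went with many sites nearby.

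Within 100 kb of the gene body there were 44 shared sites for Foxa1, 21 for Foxa2 and 43 for Foxa3. The median protein-coding gene had 25 (quartiles 13 and 36), which puts Foxa1 at percentile 88.6, Foxa2 at 41.8 and Foxa3 at 87.6. These positions depend on how sites are counted. The percentile of Foxa1 was 96.8 within 50 kb, 61.0 within 200 kb and 63.5 with peaks above the median score only. With hotspots in place of peaks, Foxa1 had 21 shared intervals, the same as the median gene, Foxa2 had 19 and Foxa3 had 33, and wide hotspots count as 1 interval each. Counted by nearest protein-coding TSS, Foxa1 was at percentile 98.9, Foxa2 at 94.4 and Foxa3 at 27.4. With sites more than 1 kb from any TSS, Foxa1 was at 96.2, Foxa2 at 68.2 and Foxa3 at 61.3. In the count within 100 kb Foxa1 and Foxa3 had nearly the same number, but the sites were placed differently. Of the shared sites, 30 of 44 lay within 10 kb of the Foxa1 body, 4 of 21 within 10 kb of Foxa2 and 7 of 43 within 10 kb of Foxa3. The gene's own TSS was the nearest protein-coding TSS for 39 of 44 sites at Foxa1, 21 of 21 at Foxa2 and 1 of 43 at Foxa3.

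**Figure D2:**
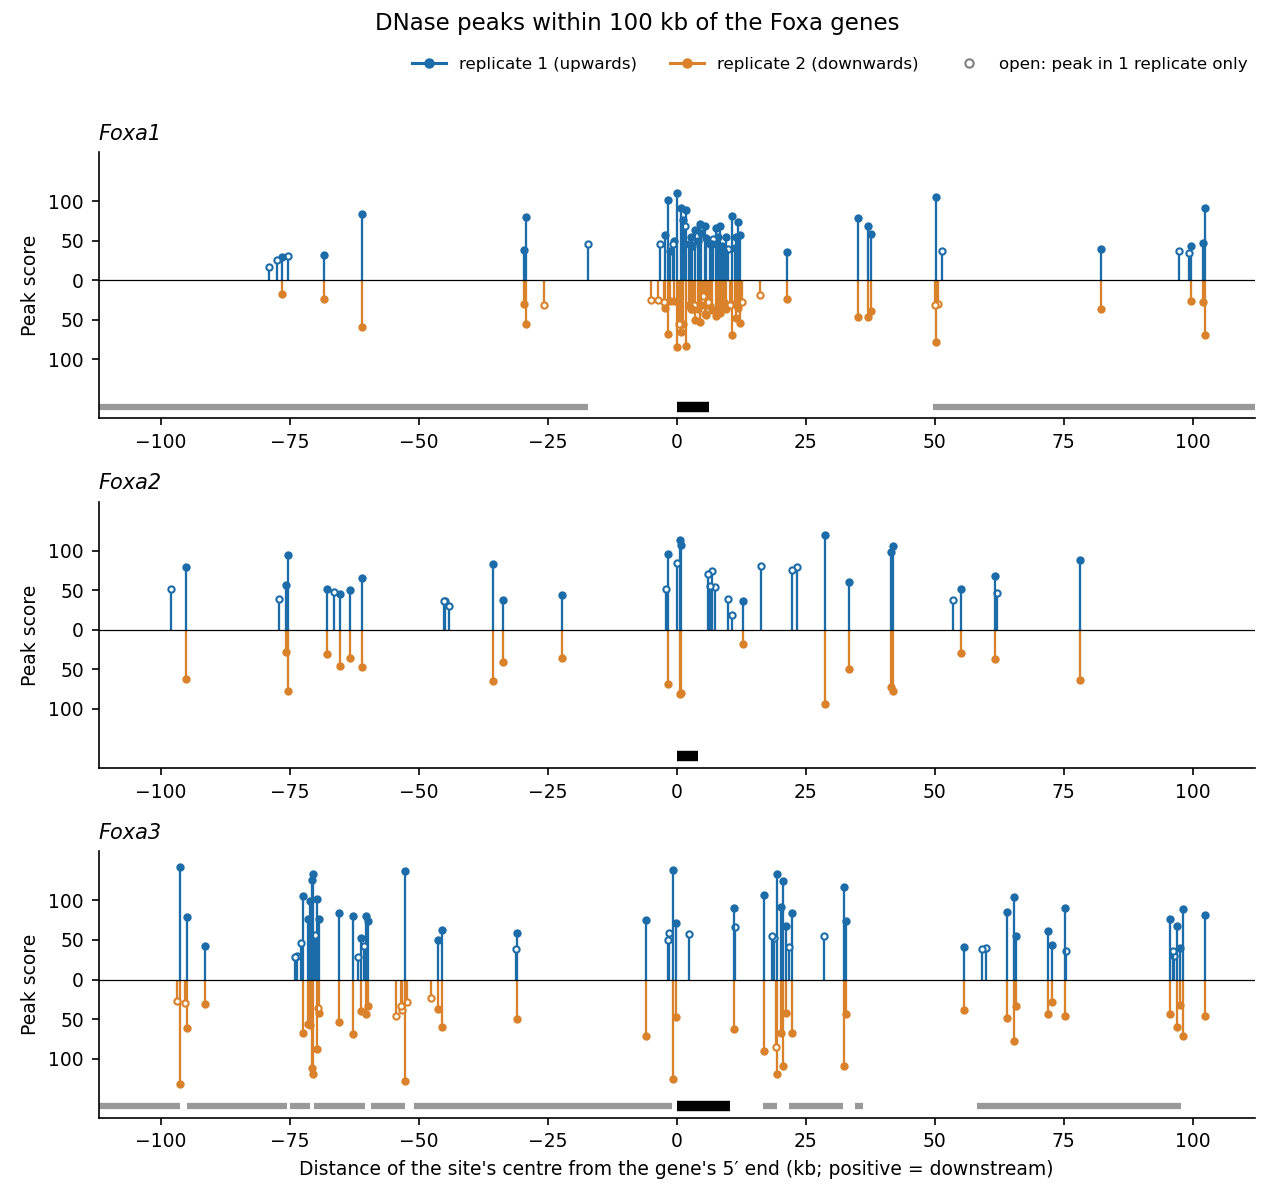
Peak scores of all sites within 100 kb of each Foxa gene against the distance of the site's centre from the gene's 5′ end in kb, with replicate 1 upwards and replicate 2 downwards. Open symbols mark sites of 1 replicate, black bars the Foxa genes and grey bars other protein-coding genes, and the sites of Foxa1 crowd around the gene while those of Foxa3 lie at its neighbours.

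**Figure D3:**
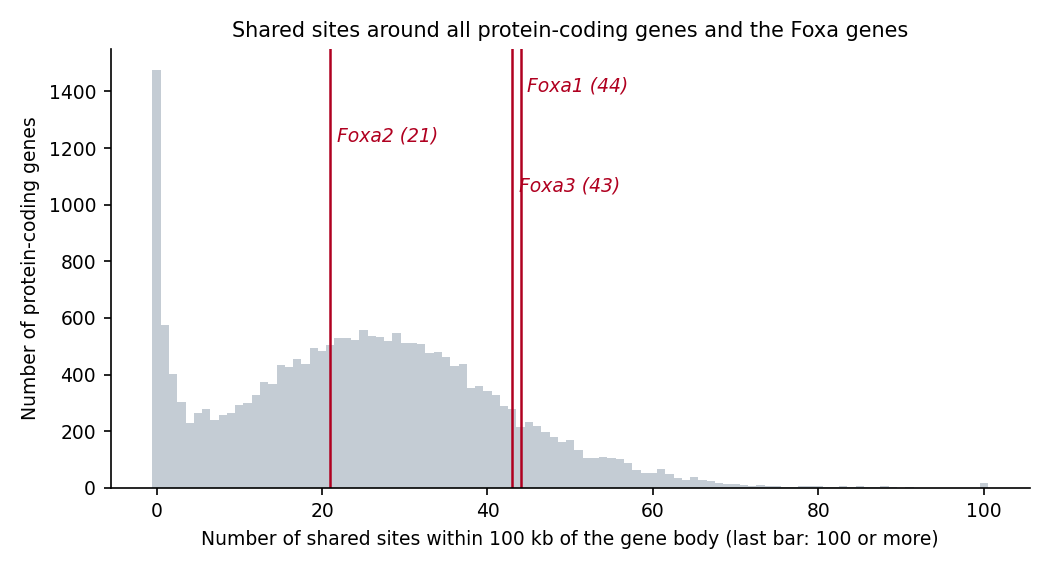
Number of shared sites within 100 kb of the gene body for all 21938 protein-coding genes, as a histogram in which the last bar holds genes with 100 or more. Lines mark Foxa2 with 21 sites, below the median of 25, and Foxa3 with 43 and Foxa1 with 44, above it.

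The window of Foxa3 held 11 other protein-coding genes, that of Foxa1 held 2 (Mipol1 and Ttc6) and that of Foxa2 held 0, against a median of 4 for all protein-coding genes. At Foxa3, 19 of the 43 shared sites were promoter sites of other genes. The 5 strongest all lay near other genes, 4 of them at promoters and 1 at 529 bp from the start of Six5. They were at Fbxo46 (142 in replicate 1 and 132 in replicate 2), Dmwd (137 and 129), Sympk (139 and 126), Irf2bp1 (134 and 119) and upstream of Six5 (134 and 119). Six5 encodes a homeodomain factor, and it neighbours Dmpk, the kinase gene whose repeat expansion causes myotonic dystrophy. No shared site lay over the body of Foxa3. More than 1 kb from any TSS were 17 of 43 sites at Foxa3, 36 of 44 at Foxa1 and 19 of 21 at Foxa2. Over the whole genome the count was 119510 of the 161051 shared sites. Assignment by distance alone thus gave Foxa3 nearly the count of Foxa1, and assignment by nearest TSS gave it its promoter site alone.

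Around Foxa1 the shared sites formed an almost unbroken run. With gaps of at most 1000 bp between neighbours, 30 shared sites followed each other over 14670 bp (chr12:57534596-57549265), from 12320 bp downstream of the 5′ end to 2349 bp upstream of it. Of these, 13 lay downstream of the gene body, 13 over it and 4 upstream. All shared sites of the genome fell into 121702 such runs, and that of Foxa1 held the most sites at this gap. The next runs held 25 sites at Mid1, a ubiquitin ligase gene, 20 at Tnrc18, and 16 each at Id2, an inhibitor of basic helix-loop-helix factors, and Zfp503, a zinc finger gene. The way of measuring runs was chosen after the Foxa1 values had been seen, so this rank is a description.

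The sites of the Foxa1 run were mostly of middling strength. Their scores ran from 36 to 110 in replicate 1 and from 26 to 85 in replicate 2, with medians of 56 and 38.5. All shared sites had medians of 67 in replicate 1 and 46 in replicate 2, so the run stood out by the number of its sites and not by their scores. Of the 30 sites, 12 were above the median score of both peak lists, as were 86394 of all 161051 shared sites. When only peaks above the median score of their list were used, the run over Foxa1 shrank to 4 sites and ranked 485 of 66927. With gaps of at most 500 bp the run over Foxa1 held 10 sites and ranked 3 of 134937, where the run with the most sites held 14. In each replicate alone, with gaps of at most 1000 bp, it held the most sites of any run, 36 in replicate 1 and 39 in replicate 2. The median spacing between the centres of neighbouring shared sites was 470 bp.

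**Figure D4:**
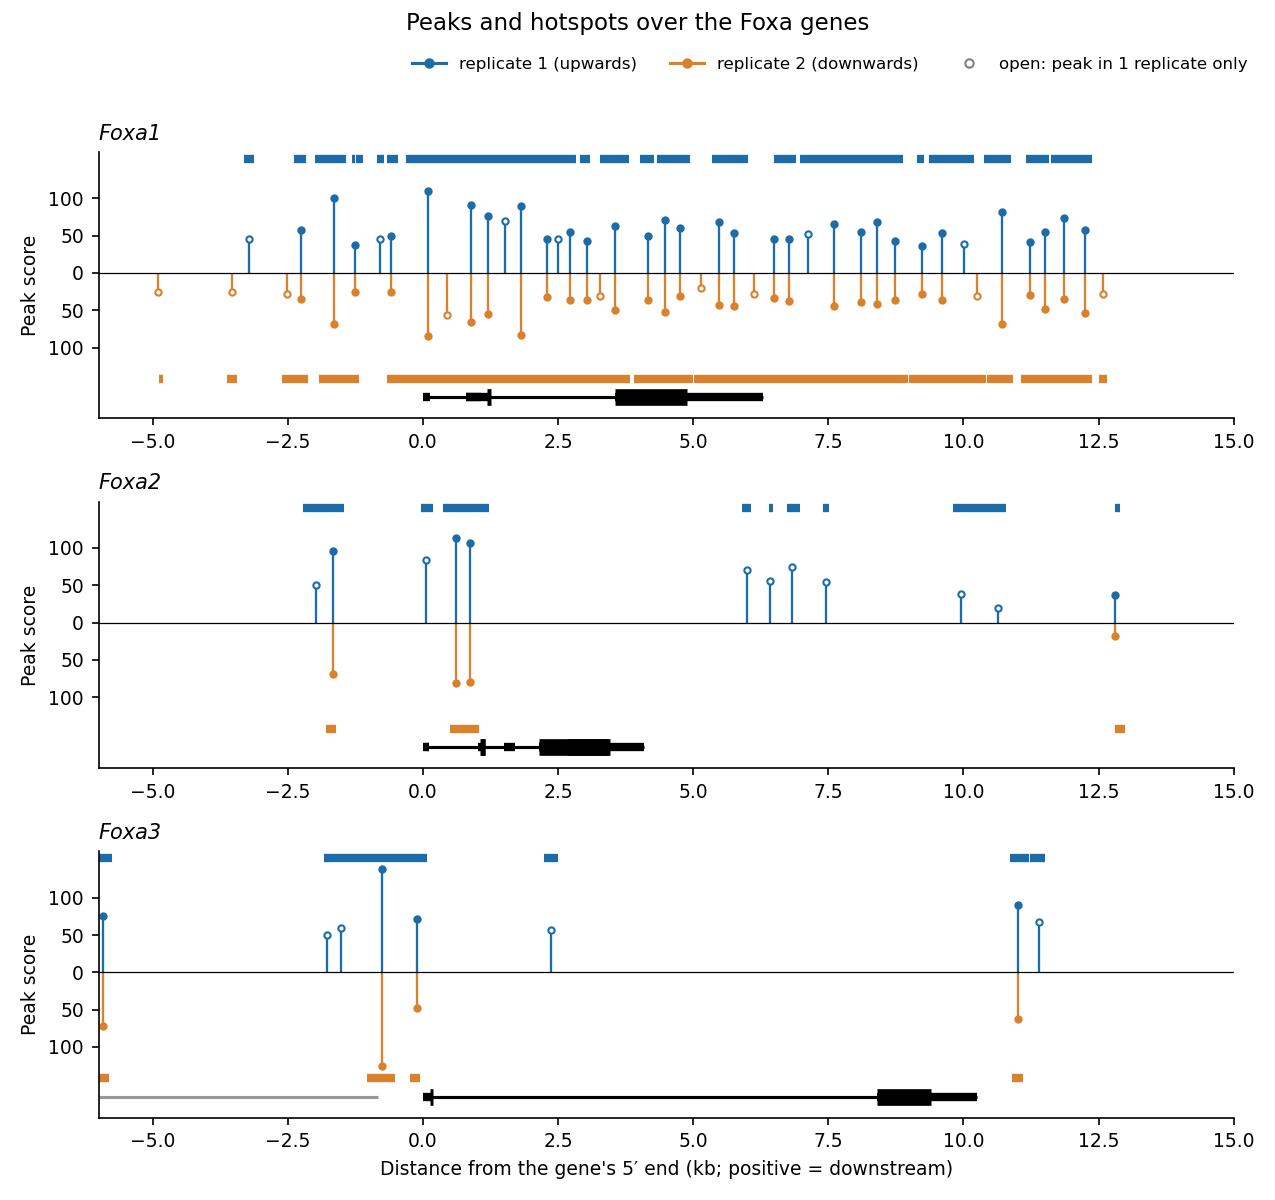
Peaks (stems, score) and hotspots (bars) from 6 kb upstream to 15 kb downstream of the 5′ end of each Foxa gene, with replicate 1 above and replicate 2 below, and the gene model at the bottom (thick, coding; thinner, noncoding exon; line, intron). Hotspots cover 81.2% of the Foxa1 body in replicate 1 and 98.5% in replicate 2, and 3.39% and 0% of the Foxa3 body.

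The map of peaks and hotspots over the gene bodies shows the hotspots beside the peaks. They covered 81.2% of the Foxa1 body in replicate 1 and 98.5% in replicate 2, coding exon included. For Foxa2 they covered 25.4% in replicate 1 and 13.2% in replicate 2, and for Foxa3 3.39% in replicate 1 and 0% in replicate 2. The median protein-coding gene had 5.01% of its body covered in replicate 1 and 3.27% in replicate 2. Cover at least as high as that of Foxa1 in both replicates was found at 36 of 21938 protein-coding genes, Foxa1 included (0.164%). The hotspot over the Foxa1 promoter was 2480 bp wide in replicate 1 and 4401 bp wide in replicate 2, against median hotspot widths of 250 and 239 bp.

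Foxa1 and Foxa2 differed in how their peaks and hotspots compared between the replicates, but not in the median log2 ratio of scores. That ratio, replicate 1 over replicate 2 at shared sites, was 0.47 at Foxa1 and 0.46 at Foxa2. At Foxa1 the body cover was higher in replicate 2, which was the case for 10.3% of the 17613 protein-coding genes with any cover. Foxa1 had 62 peaks within 100 kb in replicate 1 and 60 in replicate 2, although replicate 1 had more peaks in all. Of its 70 sites, 13 were found in replicate 1 alone and 13 in replicate 2 alone. Of the Foxa1 peaks, 77.4% in replicate 1 overlapped a replicate 2 peak, against 59.5% of all replicate 1 peaks. In replicate 2, 76.7% overlapped a replicate 1 peak, against 87.6% of all. Foxa2 had 41 peaks in replicate 1 and 21 in replicate 2. All 21 replicate 2 peaks overlapped a replicate 1 peak, and 19 of the 40 sites were found in replicate 1 alone.

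The sites found in replicate 1 alone at Foxa2 were not only weak ones. Within 100 kb of Foxa2, replicate 1 had 16 peaks with a score of at least 70, and 10 of them (62.5%, exact 95% interval 35.4% to 84.8%) overlapped a replicate 2 peak. In the whole of replicate 1 the share was 96.0% of 78989 peaks, and at Foxa1 it was 13 of 13 and at Foxa3 31 of 31. The 6 peaks without a counterpart had scores of 80, 75, 81, 74, 71 and 84, and all lay between the 5′ end of Foxa2 and 23319 bp downstream of it. None of the 19 sites found in replicate 1 alone overlapped a replicate 2 hotspot. The interval covers counting error over peaks only, and the threshold of 70 was chosen after the values had been seen. In the same stretch lies the start of 9030622O22Rik, a long transcript without a protein product that runs away from Foxa2, where replicate 1 had peaks of 74 and 56 and replicate 2 had none.

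Over the 3 genes together, 113 of 167 replicate 1 peaks (67.7%, exact 95% interval 60% to 74.7%) overlapped a replicate 2 peak, against 59.5% of all replicate 1 peaks. Of the replicate 2 peaks, 111 of 135 (82.2%, 74.7% to 88.3%) overlapped a replicate 1 peak, against 87.6% of all. The median log2 ratio of scores, replicate 1 over replicate 2, was 0.46 at the 108 shared Foxa sites (SD 0.26) and 0.44 at all shared sites. The scores of the shared Foxa sites thus differed between the replicates by about as much as those of other shared sites. The ratio exists only where both replicates had a peak, so it says nothing of sites called in either alone. The differences named above lay in which sites were called and in hotspot cover.

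The strongest sites outside the promoters differed in position. At Foxa1 the strongest site more than 1 kb from a TSS was chr12:57496516-57496665, scoring 105 in replicate 1 and 78 in replicate 2. It lay 50326 bp downstream of the 5′ end in an exon of Mipol1, of which 6 of the 150 bases are annotated as coding. The site 1560 bp upstream of Foxa1 scored 101 in replicate 1 and 68 in replicate 2, and the intronic site had 89 and 83. Mipol1 encodes a coiled-coil protein and its gene lies on the 3′ side of Foxa1. Together these values place strong sites within the run and beyond it.

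At Foxa2 the strongest of all sites was not at the promoter. It lay 28659 bp downstream of the 5′ end, in an intron of 9030622O22Rik, and scored 120 in replicate 1 and 94 in replicate 2. A second intronic site of that transcript, 41889 bp downstream, scored 106 in replicate 1 and 77 in replicate 2. Upstream, the strongest site by mean percentile over the replicates was intergenic, 75361 bp away, scoring 94 in replicate 1 and 78 in replicate 2. A site 1671 bp upstream scored 96 in replicate 1, which was higher, and 69 in replicate 2. Of the 21 shared sites at Foxa2, 11 lay upstream and 17 lay beyond 10 kb of the gene body.

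Any of the 3 forkhead words was present in the central 150 bp of 10 of the 108 shared Foxa sites (9.26%, exact 95% interval 4.53% to 16.4%), against 10.1% of all 161051 shared sites. The counts were 5 of 44 at Foxa1, 3 of 21 at Foxa2 and 2 of 43 at Foxa3. Within the Foxa1 run, 2 of 30 sites held a forkhead word. The shares around the Foxa genes were thus not distinguishable from the background at this number of sites. The Mipol1 exon site of Foxa1 held both TGTTTAC and TGTTTGC, on the minus strand, which 0.203% of all shared sites did. It was the only one of the 108 sites with more than 1 forkhead word, which 0.659% of all shared sites had. TGTTTAC was present in 3.7% of the 108 sites, against 3.77% of all shared sites, and TATTTAC in 1.85%, against 2.16%.

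Among the other 16 words searched, SP/KLF words were present in 13.9% of the Foxa sites, against 7.77% of all shared sites, and 10 of these 15 sites were at Foxa3. GATA words were present in 10.2% of the Foxa sites, against 6.25% of all. C/EBP words (TTGCNNAA) were present in 4.63% of the Foxa sites, against 10.7% of all. E-box words (CAGCTG) were present in 8.33%, against 13.7% of all, SOX/TCF words (ACAAAG) in 5.56%, against 11.5%, and SOX words in 3.7%, against 7.53%. The exact interval included the share of all shared sites for GATA (5.2% to 17.5%) and E-box words (3.88% to 15.2%). It also did so for SOX/TCF (2.07% to 11.7%) and SOX words (1.02% to 9.21%). The shares of all these words were thus not distinguishable from the background. The intervals of SP/KLF (7.99% to 21.9%) and C/EBP words (1.52% to 10.5%) narrowly left the background out. In 300 bp windows the contrast was smaller for GATA words (14.8%, against 13.2%), E-box words (19.4%, against 22.1%) and SOX/TCF words (19.4%, against 22.6%). An HNF1 word was found at 1 Foxa2 site, 78169 bp downstream, against 0.0354% of all shared sites. These shares describe sequences near each other on 3 chromosomes, and no test was made on them. The median GC content of the sites was 50% at Foxa1, 50.7% at Foxa2 and 60% at Foxa3, against 50% for all shared sites.

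Gene lists tied to FOXA function were described by the same promoter rule, beside the 68.5% of all protein-coding genes. Of 14 factors that act with FOXA proteins in lung development, 14 had a shared promoter peak. The strongest were Etv5 (145 in replicate 1 and 132 in replicate 2), a target of FGF signalling in the distal epithelium, Id2 (144 and 122) and Klf5 (137 and 120), a zinc finger factor of alveolar epithelium. Of 16 lung genes linked to FOXA1 or FOXA2, 13 had a shared promoter peak, and 16 had a peak in replicate 1, where 72.3% of all protein-coding genes had one. The strongest were Abca3 (116 and 110), the lipid transporter of lamellar bodies, Cdh1 (119 and 95), the epithelial cadherin, and Napsa (107 and 97), a protease that processes a surfactant protein.

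In contrast, 1 of 15 liver genes linked to FOXA factors had a shared promoter peak. It was Alb, the albumin gene, with 36 in replicate 1 and 40 in replicate 2. Pck1, the gluconeogenic enzyme gene, had a peak of 30 in replicate 2 and none in replicate 1, and Afp and Ahsg, which encode proteins of fetal serum, had none. Of 12 factors of other endoderm organs, 8 had a shared promoter peak, led by Hhex (116 in replicate 1 and 95 in replicate 2), Nkx6-1 (113 and 90) and Prox1 (106 and 76). Cdx2, the intestinal homeobox gene, and Hnf4a, the hepatocyte factor gene, had none. Of 10 genes of the floor plate and midbrain, 7 had one, led by Nr4a2 (129 and 107) and Ntn1 (99 and 66), and Th, the tyrosine hydroxylase gene, had none. The list of lung partners thus had a shared promoter peak at every member (exact 95% interval 76.8% to 100%) and the liver list at 1 member (0.169% to 31.9%). The lists of other endoderm organs and of floor plate and midbrain stood near the share of all genes. For the lung genes linked to FOXA1 or FOXA2 the share was 81.2% (54.4% to 96.0%), an interval that includes the 68.5% of all genes. The lists were chosen with earlier results of these data known, so these contrasts are descriptions.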

How the data were processed

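DNase-seq peaks and hotspots of 2 replicates of newborn mouse lung were used as deposited. Per the labels and deposited notes, the authors called peaks library by library on mm10. Each deposited peak carries a whole-number score, and the sources used here do not say what it measures. The deposited hotspots carry a −log10 q-value, which reached 100 in 39.5% of replicate 1 and 36.2% of replicate 2 hotspots. Aligner, caller and depth are not given in the sources used here.

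Intervals on chromosomes 1 to 19, X and Y were kept, and 0 of them passed a chromosome end of GRCm38. Genes were GENCODE M21 models, sequences came from RefSeq GRCm38.p6. Overlapping peaks of both replicates were merged, with an overlap of 1 bp counted as shared. Promoters reached 500 bp from any TSS and windows 100 kb from the gene body. Percentiles give the percent of values at or below. Words were searched on both strands in the central 150 bp, and overlaps between words were not removed. In each window 5 sites, the strongest by mean percentile, could be named, and per list the 3 strongest genes and up to 2 without a peak. A gene that this rule names is not reported here. Tf, of the liver list, matched no gene model. Exact intervals are Clopper-Pearson at 95% and cover counting error only. Interval code was tested on simulated data (Python 3.11.15, numpy 2.4.6, scipy 1.17.1).

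The members, lists and measures were chosen with earlier results of these data known. With 1 group, no test between groups was made, and the alternatives changed promoter width, TSS choice, window, overlap, score threshold, hotspots, word window and replicate.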

Additional observations from a re-analysis of the deposited data

How the results depend on the processing

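Of 228 alternative values, 188 stayed within the spread between replicates or within 1.5 times the main count, and 40 did not. All 3 Foxa genes kept a shared promoter peak with other promoter widths, overlap, score threshold and TSS sets except the 5′ gene end alone, where Foxa2 had none. Each also had a promoter peak in either replicate alone and a shared promoter hotspot. The mean percentile of the promoter score over the replicates was 24.2 for Foxa1 with protein-coding transcripts only (36.8 in the report's setting), 12.6 for Foxa2 at the 5′ gene end only (37.1), and 89.4 for Foxa3 with promoters of 1000 bp (15.2). The 108 shared sites of the 3 genes became 64 within 50 kb, 171 within 200 kb, 61 by nearest TSS and 63 above the median score, where the shared share of replicate 2 peaks was 94.1%. Mean hotspot cover of the Foxa1 window, 8.6%, was 14.6% within 50 kb and 4.82% for hotspots with a −log10 q of at least 10, and that of Foxa3, 9.64%, was 6.2% within 50 kb. The Foxa1 run of 30 sites fell to 10 with gaps of at most 500 bp, at rank 3, and to 4 above the median score, both chosen after seeing the data. Forkhead words were in 19.4% of 300 bp windows, against 17.2% for all shared sites. The lung genes linked to FOXA had a promoter peak in 81.2% without replicate 1 (all genes, 69.2%) and in 100% without replicate 2 (72.3%), and the liver list in 0% above the median score (61.9%). The cause of these shifts was not tested. No paired analysis was possible because the series holds 1 group. Unknown depth limits what a missing peak can show.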
